A study of Mus musculus with 12 samples.

Results

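The respiratory chain of the inner mitochondrial membrane is built from subunits of 2 genomes, and its transcripts were followed in C3H/10T1/2 cells after transfection with bone morphogenetic protein 2 plasmids. Members were all genes whose mouse symbol begins with mt-Nd, mt-Co, mt-Cytb, mt-Atp, Uqcr, Cox4 to Cox8 or Atp5, or is one of the Ndufa, Ndufb, Ndufc, Ndufs and Ndufv genes or Sdha to Sdhd. The 10 pseudogenes that match these patterns were left out. The rule found 97 of the 47643 genes in the files, 13 coded in mitochondrial DNA and 84 in nuclear DNA. By symbol they fall into complex I (7 mitochondrial and 37 nuclear members), complex II (4, all nuclear), complex III (1 and 8), complex IV (3 and 18) and complex V (2 and 17). Ndufa4 is counted with complex I by its name although it is now known as a complex IV subunit, and Cyc1 of complex III is outside the rule.

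Complexes I to IV pass electrons from NADH and succinate to oxygen and most of them pump protons, and complex V, the ATP synthase, uses the proton gradient to make ATP. Mitochondrial DNA is transcribed from both strands into long precursors, which are cut into mRNAs, tRNAs and rRNAs. Its mRNAs therefore share their start of transcription and differ mainly in how they are processed and kept. The nuclear members are ordinary genes on many chromosomes, and factors such as NRF1, GABPA, YY1 and ESRRA are known to act at their promoters. In mesenchymal cells that turn to bone, mitochondrial respiration is known to rise.

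C3H/10T1/2 is a mouse embryonic line of fibroblast shape, which the labels list under sarcoma, and every group was transfected transiently and without a virus at 0.5 µg of plasmid DNA per cm2. The 4 groups of 3 libraries are pH_BMP2ADV, the reference, and pH_BMP2ADV20a, pH_BMP2ADV148b and pH_BMP2ADV590, whose names point to miR-20a, miR-148b and miR-590 added to the BMP2 plasmid. Medium was exchanged after 4 h and RNA was taken at day 3. All groups carry a BMP2 plasmid, no untransfected group was analysed here, and transient transfection leaves a mixture of cells with and without plasmid. Nothing in the labels tells if replicates came from separate cultures, so a p-value measures only the spread between these libraries, which may be technical. Because RNA was taken from whole cultures, fewer cells with a transcript and less of it per cell cannot be told apart.

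Libraries held 9236431 to 14727288 gene counts, and 28286785 to 39151507 per group. Of the alignment records, 52.2% to 54.4% fell to no gene, mostly (41.5% to 44.5% of records) because a read aligned to more than 1 place. Between 4.07% and 10.0% of gene counts went to Gm42418, whose gene model lies over rRNA sequence. Summed over 12 mesenchymal markers the level was 21554 to 24894 CPM (a library's counts scaled to a common total by the trimmed mean of M-values). Markers of neural cells summed to at most 117 CPM, and those of muscle, macrophages, epithelium and endothelium to at most 16.5 CPM. Because a 3' library reads 1 place per transcript, levels of different genes were compared in CPM without a length. All libraries of a group differed by more than counting error.

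Reads with more than 1 alignment were not counted for any gene, and several mitochondrial members have copies in nuclear DNA. Mouse chromosome 1 holds a nuclear copy of a stretch of mitochondrial DNA, annotated in GENCODE M21 (GRCm38) as 7 unprocessed pseudogenes between chr1:24611535-24616197 on the minus strand. Copies of mt-Co2 (Gm28661, 681 bases), mt-Atp6 (Gm10925, 678 bases), mt-Co3 (Gm28437, 783 bases) and mt-Nd4l (Gm10222, 294 bases) are identical to the gene over the whole length of the copy. The 60 bases at the end of the mt-Co3 copy are shown beside those of mt-Co3 because a read from this stretch aligns equally well to both, and the last 60 bases of mt-Cytb because no 50-base stretch of that gene occurs in another annotated transcript. The first 60 bases of mt-Nd3 and its copy Gm28438 hold the only difference between them, T3C, in capitals (positions counted from 1 at the first base of the gene, the gene's base first).
mt-Co3, chrM:9330-9389, plus strand: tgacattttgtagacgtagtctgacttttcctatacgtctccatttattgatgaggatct
Gm28437, chr1:24613189-24613248, minus strand: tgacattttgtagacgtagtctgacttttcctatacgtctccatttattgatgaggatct
mt-Nd3, chrM:9459-9518, plus strand: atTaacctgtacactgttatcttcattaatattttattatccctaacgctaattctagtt
Gm28438, chr1:24613060-24613119, minus strand: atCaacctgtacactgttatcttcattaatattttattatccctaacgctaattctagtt
mt-Cytb, chrM:15229-15288, plus strand: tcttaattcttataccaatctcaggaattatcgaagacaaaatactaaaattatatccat

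The 13 mitochondrial members differed in shared sequence and in counts, and whether the first set the second was not tested. In the last 300 bases, where QuantSeq 3' libraries read, 98.8% to 100.0% of all 50-base words of mt-Co1, mt-Co2, mt-Co3, mt-Atp6, mt-Nd3 and mt-Nd4l also occur in another gene. Of these 6, mt-Co3 and mt-Nd4l had 0 counts in every library, mt-Co2 and mt-Atp6 at most 4 and 3, and mt-Nd3 at most 14. A library with 0 counts allows up to 3 counts, or 0.210 to 0.318 CPM, for counting error alone. mt-Co1, the catalytic core subunit of complex IV, was the exception: the copy Gm29216 covers bases 1054 to 1545 with 6 differences near its start (T1056A, C1057T, A1059G, A1060G, C1062A and A1066T), yet mt-Co1 had 4191 to 7029 counts. Over its whole length 51.1% of its words are shared, so its counts cover the gene in part, and where its reads lie was not tested. The first 876 bases of mt-Nd4 are also copied on chromosome 1, but its last 300 bases are not, and it had 33681 to 91782 counts. mt-Atp8 (chrM:7766-7969) had 0 counts without any shared 50-base word. It begins between the copied stretches of mt-Co2 and mt-Atp6, which are 233 bases apart, and the copies on chromosome 1 leave an unannotated gap of 233 bases at chr1:24614652-24614884. Whether that gap holds the same sequence was not tested, since no genome sequence was used here. By coordinates mt-Atp8 ends inside mt-Atp6 (chrM:7927-8607), and mt-Nd4l (chrM:9877-10173) ends inside mt-Nd4 (chrM:10167-11544). The ends of mt-Atp8 and mt-Nd4l therefore need not be the ends of an mRNA that a 3' library reads. The part of these overlaps in the 0 counts of mt-Atp8 and mt-Nd4l was not tested. The end of mt-Atp8 (chrM:7927-7969) is also the start of mt-Atp6, which Gm10925 copies. That stretch is shorter than 50 bases, so the 50-base words could not find it.

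**Figure D1:**
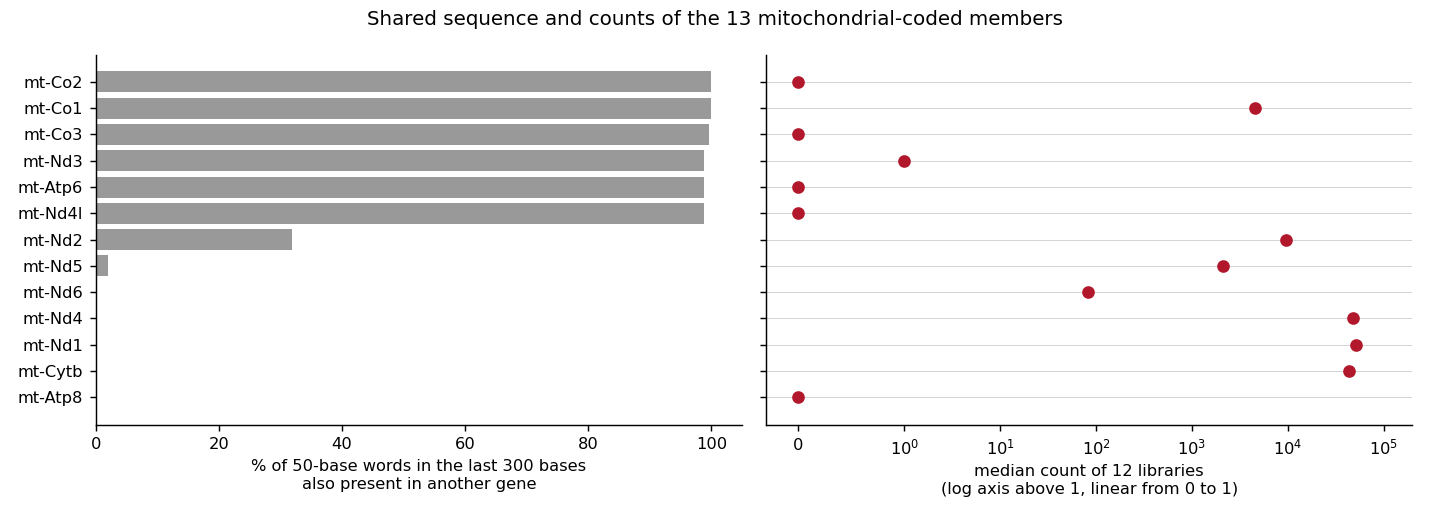
Left, percent of the 50-base words in the last 300 bases of each mitochondrial member that also occur in another GENCODE M21 transcript; right, its median count over the 12 libraries on an axis that is logarithmic above 1. mt-Co1 is the one member with all words shared that has counts far above 0. mt-Atp8 is the one with no shared 50-base word and no counts, though its end overlaps the copied start of mt-Atp6.

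The copy of mt-Nd3 took up counts of its own. Gm28438 had 439, 319 and 186 counts in the pH_BMP2ADV libraries, 87, 162 and 116 in pH_BMP2ADV20a, 129, 235 and 126 in pH_BMP2ADV148b and 1882, 52 and 555 in pH_BMP2ADV590. The other 6 copies had 0 to 7 counts. In pH_BMP2ADV590 the copy was thus both at its highest (replicate 1) and at its lowest (replicate 2), and this group overlapped each of the others. In CPM the pH_BMP2ADV20a libraries lay below those of pH_BMP2ADV and of pH_BMP2ADV148b without overlap, and neither difference passed (adjusted p = 0.36 and 0.81). The fit called it higher in pH_BMP2ADV590 than in pH_BMP2ADV20a (log2 fold change 2.75, SE 0.565, adjusted p = 0.0091) and than in pH_BMP2ADV148b (1.92, SE 0.543, adjusted p = 0.042), and not against pH_BMP2ADV (1.25, SE 0.516, adjusted p = 0.15). Since the copy and mt-Nd3 differ at 1 of 345 bases, which of the 2 these reads came from was not tested. Gm28438 was chosen for description after its values were seen.

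Of the 97 members 84 had enough counts to be tested, 7 mitochondrial and 77 nuclear. The 7 are mt-Nd1, mt-Nd2, mt-Nd4, mt-Nd5 and mt-Nd6 of complex I, mt-Cytb of complex III and mt-Co1 of complex IV, and no mitochondrial member of complex V could be tested. mt-Nd1, mt-Nd4 and mt-Cytb made up 88.6% to 90.3% of the mitochondrial members' counts, so a sum over the class is mainly these 3. In pH_BMP2ADV590 against pH_BMP2ADV, 9 of the 84 members rose and none fell, 10.7% of the members tested against 8.26% of all 13229 genes tested (4.37% called higher and 3.89% lower). The mitochondrial ones among them were mt-Nd2, mt-Nd4 and mt-Cytb.

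mt-Nd4, a core membrane subunit of complex I, had 4779, 3881 and 3527 CPM in the pH_BMP2ADV libraries and 6478, 4707 and 5125 CPM in pH_BMP2ADV590. Replicate 2 of pH_BMP2ADV590 lies just below replicate 1 of pH_BMP2ADV, so the 2 groups overlap. The log2 fold change was 0.42 (SE 0.12, adjusted p = 0.0295). In pH_BMP2ADV20a the gene was at 4355, 3643 and 4366 CPM and in pH_BMP2ADV148b at 3534, 4283 and 4951 CPM, both within or close to the range of the reference.

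mt-Nd2, another membrane subunit of complex I, had 868, 743 and 838 CPM in pH_BMP2ADV and 1272, 911 and 997 CPM in pH_BMP2ADV590. The groups did not overlap, and replicate 1 of pH_BMP2ADV590 was well above the other 2 (log2 fold change 0.38, SE 0.106, adjusted p = 0.0274). In the other hybrid groups it ranged from 731 to 918 CPM, with libraries both below and above the range of the reference.

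mt-Cytb, the cytochrome b of complex III and its sole mitochondrial-coded subunit, had 4100, 3664 and 3547 CPM in pH_BMP2ADV and 5135, 4217 and 4540 CPM in pH_BMP2ADV590. These groups did not overlap either (log2 fold change 0.30, SE 0.0873, adjusted p = 0.0356). Its values were 3858, 3781 and 3882 CPM in pH_BMP2ADV20a and 3181, 3646 and 4159 CPM in pH_BMP2ADV148b.

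The other 4 mitochondrial members did not pass in this comparison. mt-Nd5, a proton-pumping subunit at the far end of the complex I membrane arm, had 196, 181 and 191 CPM in pH_BMP2ADV and 254, 216 and 209 CPM in pH_BMP2ADV590 (log2 fold change 0.26, SE 0.0844, adjusted p = 0.0587). For mt-Nd1, which joins the membrane arm of complex I to its peripheral arm, the values were 4977, 4510 and 4797 against 5607, 5117 and 5508 CPM (0.18, SE 0.0719, adjusted p = 0.125). Neither overlapped between the groups. mt-Co1 was at 422, 425 and 439 against 496, 444 and 435 CPM (0.10, SE 0.0718, adjusted p = 0.48).

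mt-Nd6 is the one member coded on the opposite mitochondrial strand (chrM:13552-14070, minus), and its end overlaps that of mt-Nd5 (chrM:11742-13565, plus). It was low, at 8.35, 6.30 and 4.71 CPM in pH_BMP2ADV, 8.81, 8.23 and 7.87 in pH_BMP2ADV20a, 6.45, 8.49 and 9.67 in pH_BMP2ADV148b and 6.71, 5.02 and 4.61 in pH_BMP2ADV590. The pH_BMP2ADV590 libraries lay below all of pH_BMP2ADV20a and overlapped the rest. Its estimates were negative where those of the other 6 were mostly positive: -0.25 (SE 0.245, adjusted p = 0.63) against pH_BMP2ADV, -0.60 (SE 0.239, adjusted p = 0.24) against pH_BMP2ADV20a and -0.58 (SE 0.244, adjusted p = 0.21) against pH_BMP2ADV148b. None of these passed, with 45 to 126 counts per library. No source used here states if counting used strand, so mt-Nd6 and mt-Nd5 reads cannot be told apart where the genes overlap.

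**Figure D2:**
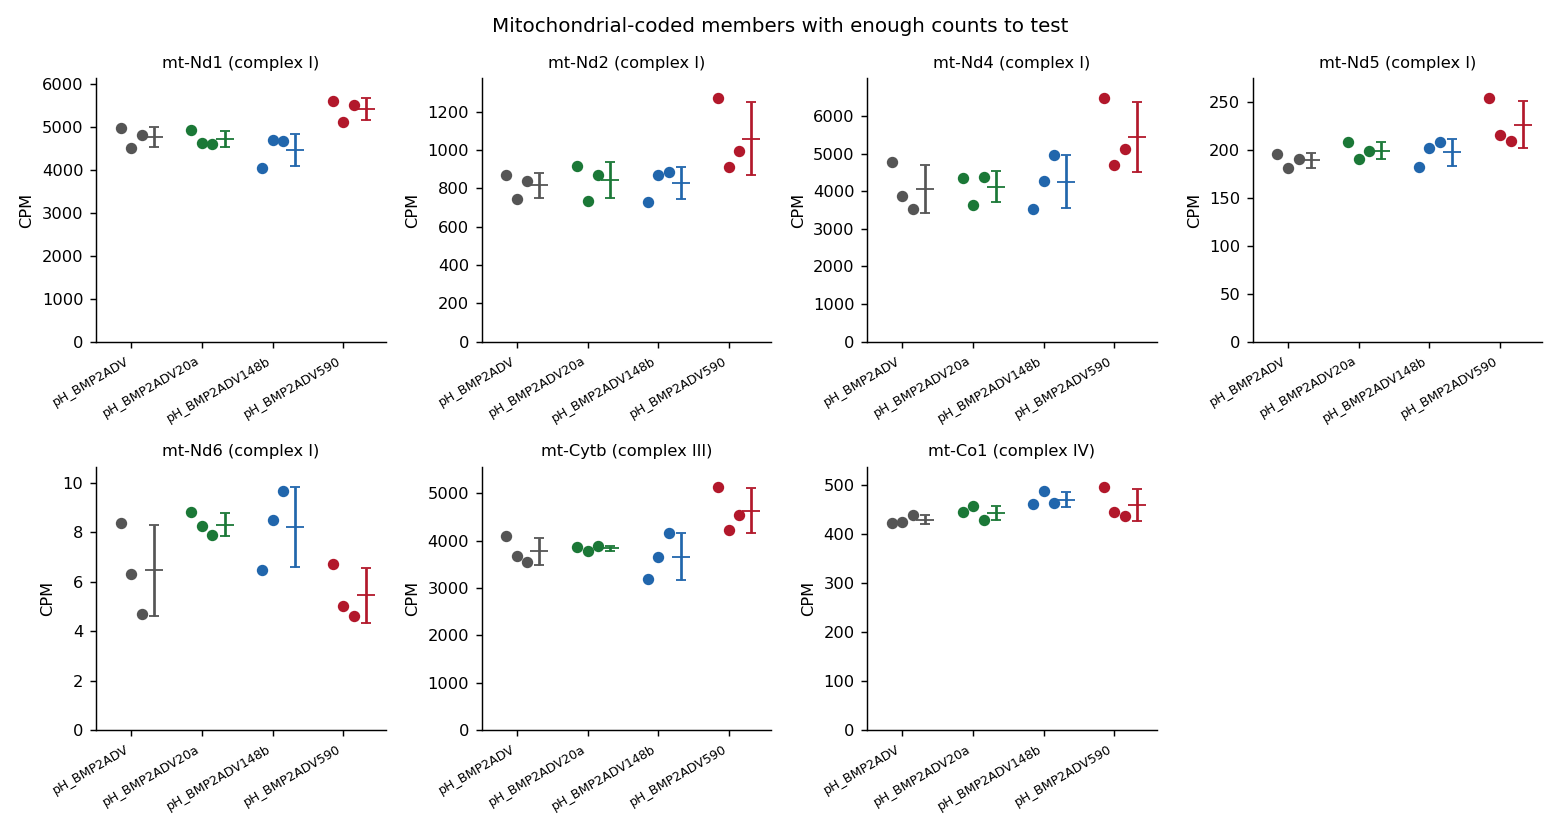
CPM of the 7 tested mitochondrial members in each library (points, replicates 1 to 3 from left to right), with mean and SD beside them. In 6 of the 7 panels the highest point is replicate 1 of pH_BMP2ADV590; mt-Nd6 is the exception.

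The 9 calls did not all hold when a library was left out. Without replicate 2 or 3 of pH_BMP2ADV, or without replicate 1 of pH_BMP2ADV590, no mitochondrial member was called and 1, 2 and 3 nuclear ones were. Of all genes, 678 of 13649, 565 of 13662 and 890 of 13596 were called in these fits, against 1093 of 13229 in the main fit. Without replicate 3 of pH_BMP2ADV590 4 members were called (787 of 13685 genes), and without its replicate 2 there were 11 (935 of 13571 genes). With library totals alone 2 members passed, and with only these 2 groups in the fit 3, nuclear ones in both. Of all genes, 1085 of 13229 and 818 of 12712 passed there. DESeq2 called 13, not among them mt-Nd4 (adjusted p = 0.13), and 1228 of 24197 genes. The direction of all 9 was kept in every setting tried.

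As a share of all gene counts, the 13 mitochondrial members summed to 1.58%, 1.37% and 1.30% in the pH_BMP2ADV libraries, 1.43%, 1.32% and 1.41% in pH_BMP2ADV20a, 1.21%, 1.44% and 1.58% in pH_BMP2ADV148b and 1.95%, 1.51% and 1.67% in pH_BMP2ADV590. The lowest pH_BMP2ADV590 library was below the highest of pH_BMP2ADV and of pH_BMP2ADV148b, so the sums overlap. The 84 nuclear members were steadier, with means of 1.66% ± 0.0616 (SD, n = 3) in pH_BMP2ADV, 1.69% ± 0.0157 in pH_BMP2ADV20a, 1.73% ± 0.0663 in pH_BMP2ADV148b and 1.73% ± 0.0453 in pH_BMP2ADV590. The mitochondrial means were 1.42% ± 0.145, 1.39% ± 0.0557, 1.41% ± 0.184 and 1.71% ± 0.220 in the same order.

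The ratio of mitochondrial to nuclear counts, which does not depend on the scaling of the libraries, was 0.942, 0.803 and 0.821 in pH_BMP2ADV and 1.10, 0.900 and 0.952 in pH_BMP2ADV590. In pH_BMP2ADV20a it was 0.856, 0.784 and 0.830, and in pH_BMP2ADV148b 0.721, 0.843 and 0.874. On the log2 scale the mean of pH_BMP2ADV590 was 0.20 above the reference, beside an SD of 0.125 in the reference and 0.152 in pH_BMP2ADV590. pH_BMP2ADV20a and pH_BMP2ADV148b were at -0.05 and -0.08, inside the spread of the reference. The difference for pH_BMP2ADV590 was 0.12 without its replicate 1 and 0.27 without replicate 1 of pH_BMP2ADV, so 1 library moves it by over 1.5 times. The classes were set side by side with no test.

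The ribosomal RNAs of the mitochondrion did not follow its mRNAs. Counts of mt-Rnr1 and mt-Rnr2, which come from the same strand as most of the mRNAs, were 0.362%, 0.409% and 0.477% of gene counts in pH_BMP2ADV and 0.361%, 0.371% and 0.367% in pH_BMP2ADV590. Their log2 fold changes in this comparison were both -0.16 (SE 0.0836 and 0.106, adjusted p = 0.27 and 0.42). Within pH_BMP2ADV, pH_BMP2ADV148b and pH_BMP2ADV590, the library with the most mitochondrial mRNA had the least of these rRNAs and the reverse. The rRNA shares in pH_BMP2ADV590 lay close together, however. In pH_BMP2ADV20a the most mRNA was in replicate 1 (1.43%, with 0.422% rRNA) and the least rRNA in replicate 3 (0.402%). Counts of mitochondrial mRNA per rRNA count averaged 3.48 ± 0.826 (SD, n = 3) in pH_BMP2ADV, 3.33 ± 0.215 in pH_BMP2ADV20a, 3.61 ± 0.953 in pH_BMP2ADV148b and 4.67 ± 0.670 in pH_BMP2ADV590.

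The share of Gm42418 ran the same way as the mitochondrial rRNAs. It was 5.78%, 6.28% and 10.0% in pH_BMP2ADV, 7.41%, 6.30% and 4.07% in pH_BMP2ADV148b and 4.99%, 8.99% and 7.06% in pH_BMP2ADV590, and in these 3 groups the order of the libraries is the reverse of that of their mitochondrial mRNA share. In pH_BMP2ADV20a, where it was 8.17%, 8.43% and 8.08%, the order differed. The group means were 7.37% ± 2.33 in pH_BMP2ADV and 7.01% ± 2.00 in pH_BMP2ADV590. With the share of Gm42418 as a term in the model, an alternative chosen after seeing the data, all 9 members were among the 11 called and mt-Nd4, mt-Nd2 and mt-Cytb had log2 fold changes of 0.38, 0.34 and 0.27.

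**Figure D3:**
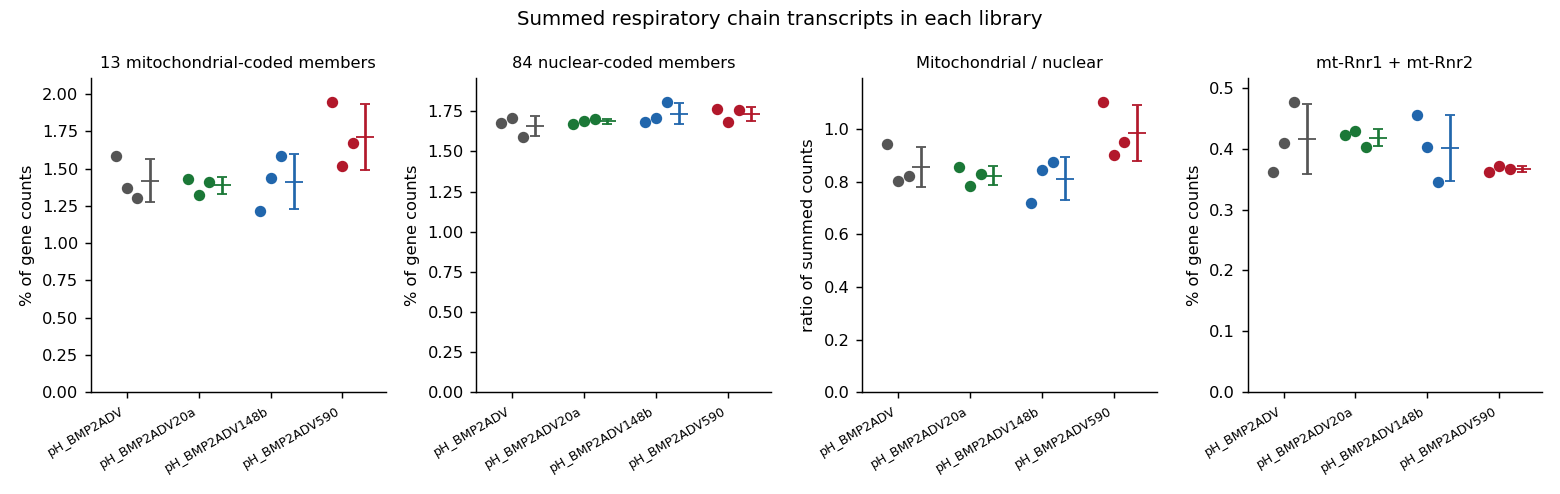
Summed counts of the 13 mitochondrial and the 84 nuclear members and of the 2 mitochondrial rRNAs, as percent of gene counts, and the ratio of the first 2 sums, per library (points) with mean and SD. The pH_BMP2ADV590 libraries reach 1.95% in the first panel, and their nuclear sums overlap those of the other groups.

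Beside 4.37% of all genes called higher and 3.89% lower, 6 of 77 nuclear members rose in pH_BMP2ADV590 against pH_BMP2ADV and none fell. They are 2 subunits each of complexes I, III and IV: Ndufa3 (chr7:3617373-3620327) and Ndufv3 (chr17:31520115-31531331), Uqcrq (chr11:53427922-53430831) and Uqcrh (chr4:116066965-116075071), Cox6b1 (chr7:30616861-30626151) and Cox8a (chr19:7215153-7217616), all protein-coding genes of GRCm38. Cox6b1, which sits where 2 complex IV monomers meet, had 246, 247 and 257 CPM in pH_BMP2ADV and 330, 318 and 320 CPM in pH_BMP2ADV590. The groups were far apart compared with the spread within them, and the log2 fold change of 0.37 (SE 0.0842, adjusted p = 0.0068) was called in all 22 alternative settings. It was at 287, 265 and 291 CPM in pH_BMP2ADV20a and 252, 304 and 329 CPM in pH_BMP2ADV148b, where neither difference from the reference passed.

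Ndufa3, an accessory subunit of the complex I membrane arm, had 128, 112 and 122 CPM against 148, 163 and 147 CPM in pH_BMP2ADV590 (log2 fold change 0.34, SE 0.0805, adjusted p = 0.0089). It lost its call in 1 of the 22 settings, without replicate 2 of pH_BMP2ADV (adjusted p = 0.068). Ndufv3, a small subunit of the NADH-binding module of complex I, had 92.4, 92.9 and 85.0 against 115, 113 and 113 CPM (0.33, SE 0.0942, adjusted p = 0.0286). No library of the reference reached those of pH_BMP2ADV590 in either gene.

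Of the complex III subunits, Uqcrq had 403, 362 and 382 against 418, 485 and 469 CPM (log2 fold change 0.26, SE 0.0772, adjusted p = 0.0375), and Uqcrh, the hinge protein beside cytochrome c1, 439, 409 and 409 against 502, 499 and 472 CPM (0.23, SE 0.0717, adjusted p = 0.0488). Cox8a, the widely expressed form of the smallest complex IV subunit, had 229, 229 and 233 against 294, 277 and 268 CPM (0.28, SE 0.0843, adjusted p = 0.0394). All 3 were without overlap between the groups. Over the 22 settings Uqcrh lost its call in 16, Cox8a in 12 and Uqcrq in 8, and Ndufv3 in 6.

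**Figure D4:**
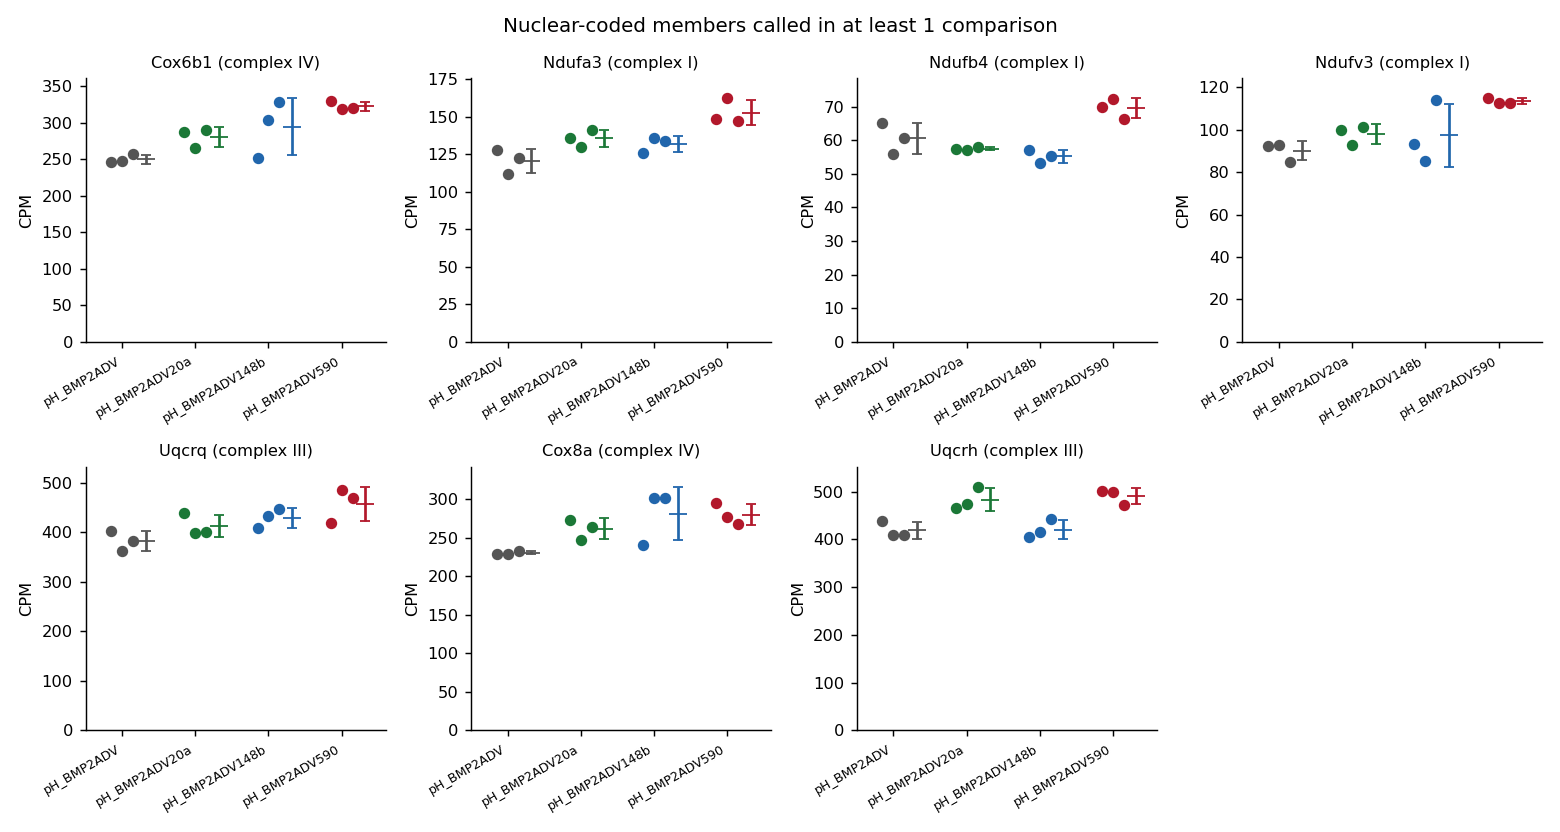
CPM of the 7 nuclear members called in at least 1 comparison, per library (points), with mean and SD. Cox6b1, Ndufa3 and Ndufv3 show the pH_BMP2ADV590 libraries above every pH_BMP2ADV library, and Ndufb4 above every pH_BMP2ADV148b library.

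The promoters of called members differ in the motifs they hold. RefSeq windows (GRCm38.p6, 250 bases before to 50 after a start) were matched for 66 nuclear members, with 71 windows in all. On either strand, the GABPA motif CCGGAAG stood in 22.5% of these windows and in 11.6% of 21262 promoter windows, the NRF1 motif GCGCATGC in 14.1% and 3.51%, the YY1 motif AAGATGGC in 12.7% and 3.05%, and the ESRRA motif TCAAGGTCA in 2.82% and 0.334%. For Uqcrq and Ndufv3 none of these matches was found or no window was matched. Of the other 4 nuclear members called in pH_BMP2ADV590, Cox6b1, Cox8a and Uqcrh hold the first and Ndufa3 the third, and 30 bases around each match are printed with the match in capitals (the GABPA matches on the reverse strand). Cox6a1, the common form of subunit 6a, which was not called (0.13, SE 0.0797, adjusted p = 0.38), is shown for the NRF1 motif and also holds a GABPA match. A match describes these letters and is not a sign of binding, which was not measured.
Cox6b1, chr7:30626124-30626153, minus strand: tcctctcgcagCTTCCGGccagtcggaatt
Cox8a, chr19:7217603-7217632, minus strand: tttccgaaataCTTCCGGctcgggcgtccg
Uqcrh, chr4:116075062-116075091, minus strand: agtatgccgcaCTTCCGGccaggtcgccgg
Ndufa3, chr7:3617384-3617413, plus strand: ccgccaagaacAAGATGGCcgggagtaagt
Cox6a1, chr5:115349102-115349131, minus strand: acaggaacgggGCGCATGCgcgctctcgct

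Most nuclear members lay slightly above the reference in pH_BMP2ADV590. Estimates were above 0 for 65 of 77, against 50.3% of all genes tested, with a median log2 fold change of 0.09 beside 0.26 for the 7 mitochondrial members and 0.0020 for all genes. All 3 libraries were above all 3 of the reference for 25 of 77 nuclear and 4 of 7 mitochondrial members, against 12.5% of all genes, and below them for 1 nuclear member, also against 12.5%. By complex the nuclear medians were 0.09 for I, 0.08 for II, 0.06 for III, 0.10 for IV and 0.12 for V. The largest of these is that of complex V, where none of 17 members passed. Of the 2 nuclear members with the highest mean CPM in each complex, those of complex III were called (Uqcrq and Uqcrh) and the other 8 were not: Atp5b (catalytic beta subunit of the ATP synthase) was at -0.02, Atp5g3 (c-ring) at 0.08, Cox6c at 0.07, Cox7c at -0.14, Sdha at -0.0038, Sdhb at 0.14, Ndufb8 at 0.06 and Ndufa2 at 0.18.

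In pH_BMP2ADV20a against pH_BMP2ADV no member was called by edgeR, against 0.476% of all genes (0.0983% higher and 0.378% lower). At an unadjusted p below 0.05 there were 8 of 77 nuclear members, all higher, and no mitochondrial ones, beside 586 higher and 720 lower of the 13229 genes. DESeq2 and limma-voom called none either. Ndufa2, a peripheral-arm subunit of complex I, was at 401, 415 and 401 CPM in pH_BMP2ADV and 457, 442 and 478 CPM in pH_BMP2ADV20a, without overlap (log2 fold change 0.18, SE 0.0687, adjusted p = 0.36). Estimates were above 0 for 61 of 77 nuclear members (49.6% of all genes), with a median of 0.08, and the mitochondrial median was 0.04. In 18 of 77 nuclear and 0 of 7 mitochondrial members the 3 libraries were above the reference, against 7.76% of all genes, and in 1 nuclear member below it, against 8.79%.

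For pH_BMP2ADV148b against pH_BMP2ADV the picture was similar, with no member called (0.249% of all genes, 0.212% higher and 0.0378% lower), 8 of 77 nuclear members at an unadjusted p below 0.05, all higher, and none by DESeq2 or limma-voom. Of the 13229 genes, 575 were higher and 540 lower at that unadjusted p. Cox8a had 241, 302 and 301 CPM, above the 229 to 233 CPM of the reference (log2 fold change 0.29, SE 0.0845, adjusted p = 0.22). The nuclear median was 0.06, with 56 of 77 above 0 (49.9% of all genes) and 18 of 77 without overlap on the higher side (7.36% of all genes), with 4 on the lower side (7.37%). The mitochondrial median was also 0.06, and it was -0.03 without replicate 3 of pH_BMP2ADV148b. These 3 comparisons share the pH_BMP2ADV libraries, so a low value there raises the estimates in all of them.

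**Figure D5:**
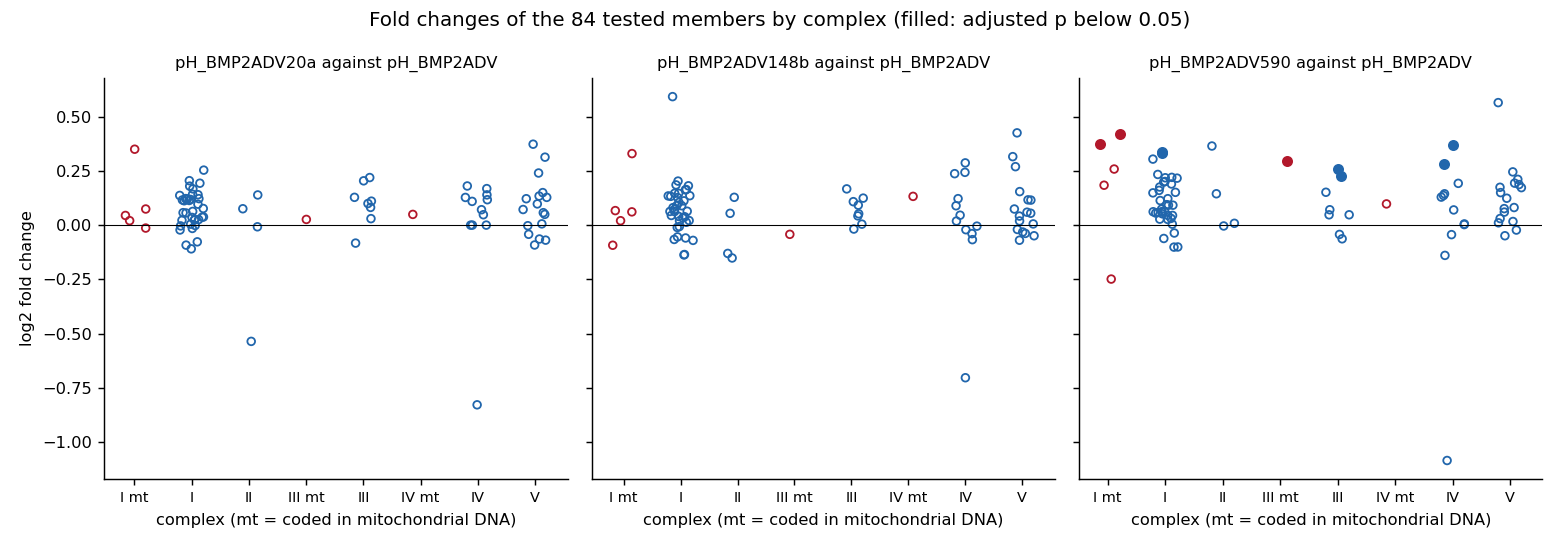
Log2 fold change of the 84 tested members against pH_BMP2ADV, by complex and coding genome, in the 3 hybrid groups; filled points have an adjusted p below 0.05. Points lie mostly above 0 in each panel, and the filled ones are the 9 members called in pH_BMP2ADV590.

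pH_BMP2ADV590 was also compared with the other hybrid groups. Against pH_BMP2ADV148b 3 of 84 members rose, 3.57% beside 4.43% of all genes (2.46% called higher and 1.97% lower), and none fell. They were mt-Cytb (log2 fold change 0.34, SE 0.0874, adjusted p = 0.0246), mt-Nd1 (0.28, SE 0.0719, adjusted p = 0.0255), which had 4033, 4689 and 4674 CPM in pH_BMP2ADV148b, and Ndufb4. Ndufb4, an accessory subunit of the complex I membrane arm, had 57.0, 53.1 and 55.3 CPM in pH_BMP2ADV148b and 70.0, 72.3 and 66.3 in pH_BMP2ADV590 (0.33, SE 0.092, adjusted p = 0.0363). All 3 were without overlap. Of all members, 4 mitochondrial and 7 nuclear ones did not overlap on the higher side (10.4% of all genes) and 2 nuclear ones on the lower side (10.4%). The median was 0.28 for mitochondrial members and 0.03 for nuclear ones.

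The calls against pH_BMP2ADV148b also depended on single libraries. No member was called without replicate 1 of pH_BMP2ADV148b, or without replicate 1 or 3 of pH_BMP2ADV590, 1 was called without replicate 2 of pH_BMP2ADV148b, and 6 were called without replicate 2 of pH_BMP2ADV590. With the share of Gm42418 as a term there were 7, among them all 3. The calls over all genes in these fits are not set beside these counts.

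Against pH_BMP2ADV20a no member was called (2.17% of all genes, 1.29% higher and 0.877% lower), and DESeq2 and limma-voom called none. At an unadjusted p below 0.05 there were 5 mitochondrial members higher and 1 lower (mt-Nd6), and 9 of 77 nuclear members higher, beside 1009 higher and 892 lower of the 13229 genes. Without overlap, 4 mitochondrial and 9 nuclear members were higher (9.8% of all genes), and 1 mitochondrial and 2 nuclear ones lower (9.25%). The mitochondrial median was 0.20 and the nuclear 0.02, and mt-Nd4 came nearest among the mitochondrial ones (0.40, SE 0.12, adjusted p = 0.089). Without replicate 2 of pH_BMP2ADV590, 7 members were called, 3 of them mitochondrial. Between pH_BMP2ADV148b and pH_BMP2ADV20a none was called either (0.559% of all genes; 2 nuclear members at an unadjusted p below 0.05, 1 in each direction, beside 557 higher and 474 lower of all genes; none by DESeq2 or limma-voom), with medians of -0.02 and -0.0091. Of all genes 0.506% were called higher and 0.0529% lower there, and 3 members were higher without overlap (7.45% of all genes) and 4 lower (6.58%). Over all 4 groups at once, Cox6b1 (adjusted p = 0.0383), mt-Cytb (0.0428) and Ndufa3 (0.0497) passed, 3 of 84 beside 6.25% of all genes.

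Tissue and condition isoforms were close to absent, and their common counterparts carried the counts. Cox4i2, the form of subunit 4 known from lung and low oxygen, had 0 to 8 counts per library, while Cox4i1 had 412 to 505 CPM. Cox6b2, a testis form, had 0 to 3 counts, against 246 to 330 CPM for Cox6b1. Cox7a1, a heart and muscle form, had 2 to 8 counts and Cox7a2 463 to 529 CPM. Cox8b and Cox8c had 0 in all libraries, and Ndufa4l2, known to be induced at low oxygen, at most 2 counts, against 112 to 178 CPM for Ndufa4.

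The muscle form Cox6a2 was the member just above the low-count filter, at 2.07, 2.60 and 2.51 CPM in pH_BMP2ADV, 2.38, 0.299 and 1.31 in pH_BMP2ADV20a, 1.84, 0.955 and 1.58 in pH_BMP2ADV148b and 1.48, 0.448 and 1.40 in pH_BMP2ADV590. All pH_BMP2ADV590 libraries were below the reference, with a log2 fold change of -1.09 (SE 0.57, adjusted p = 0.28) from 4 to 34 counts per library. Cox7a1 stood just below the filter, at a mean of 0.334 CPM. Ndufa4 had 119, 134 and 138 CPM in pH_BMP2ADV and 174, 132 and 178 CPM in pH_BMP2ADV590, with replicate 2 inside the reference range (0.30, SE 0.105, adjusted p = 0.076).

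By their medians, the members were steadier between replicates than all genes tested. The median SD of log2 CPM within groups was 0.0888 for the 77 nuclear members and 0.133 for the 7 mitochondrial ones, against 0.190 for all genes tested. Genes of like level were not compared, so the part of expression level in this was not tested. The lowest tested member, Cox6a2 (mean 1.57 CPM), had an SD of 0.771. Sdhd, the membrane anchor of complex II, was the widest, at 32.5, 27.1 and 22.5 CPM in pH_BMP2ADV and 73.6, 7.08 and 23.8 in pH_BMP2ADV590 (described after its values were seen). Its highest and its lowest value among all 12 libraries were thus both in pH_BMP2ADV590, as for Gm28438. From replicate 1 to replicate 2 of that group the median log2 difference was 0.28 for mitochondrial members and -0.03 for nuclear ones, as replicate 1 minus replicate 2. These 2 libraries also differed by base composition: relative to the mean of all libraries, genes with at most 34.7% GC at the 3' end stood at a median of 0.05 in replicate 1 and -0.05 in replicate 2 (0.06 and 0.05 in replicates 2 and 3 of pH_BMP2ADV), and the tested mitochondrial members have a median GC content of 35.3% there, against 45.3% for nuclear members. The part of GC content in the result was not tested beyond a correction. With GC content corrected, an alternative chosen after seeing the data, 10 members were called against pH_BMP2ADV, 4 of them mitochondrial, and the mitochondrial median was 0.28.

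The nuclear members Cox7c (73.3%), Atp5l (70.1%), Ndufs5 (54.6%) and Ndufs3 (53.0%) share over 50% of the words in their last 300 bases with other genes, mostly processed pseudogenes, so part of their reads may go uncounted. For 63 of the 84 nuclear members no word there was shared. Ndufs5, an intermembrane-space subunit of complex I, had 51 to 182 counts per library, and its estimate of 0.59 in pH_BMP2ADV148b (SE 0.276, adjusted p = 0.57) was the highest of any member in that comparison.

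Most genes that assemble, express or serve the chain did not pass, and neither did most members. Of all genes, 4.37% were called higher and 3.89% lower in pH_BMP2ADV590 against pH_BMP2ADV. In pH_BMP2ADV590 against pH_BMP2ADV, 1 of 45 tested assembly factors rose: Cox19, which takes part in copper delivery to complex IV, at 33.4, 33.1 and 25.9 against 37.8, 48.4 and 40.2 CPM (log2 fold change 0.45, SE 0.127, adjusted p = 0.0287). Of 13 tested mitochondrial rRNAs and tRNAs 1 fell, the tRNA mt-Tc, at 9.61, 3.99 and 8.17 against 4.16, 4.39 and 2.60 CPM (-0.96, SE 0.298, adjusted p = 0.047), with overlap between the groups. None of 29 genes of mitochondrial transcription and RNA processing, 12 regulators of biogenesis, 15 carriers, 17 citric acid cycle genes and 77 mitochondrial ribosome genes passed in this comparison. Their median log2 fold changes were -0.05, -0.16, 0.04, -0.06 and -0.03.

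In the same comparison, Tfam and Polrmt, which start transcription of mitochondrial DNA, were at -0.12 (SE 0.116, adjusted p = 0.62) and -0.05 (SE 0.138, adjusted p = 0.90). Lrpprc, which keeps mitochondrial mRNAs stable, was at 0.26 (SE 0.205, adjusted p = 0.53), with 92.3 CPM in replicate 1 of pH_BMP2ADV590 and 45.3 and 47.8 CPM in the other 2. Nrf1 was at -0.15 (SE 0.111, adjusted p = 0.50), and Cycs, cytochrome c, at 0.32 (SE 0.121, adjusted p = 0.105) without overlap. Cyc1, the cytochrome c1 of complex III, was at -0.11 (SE 0.0983, adjusted p = 0.57). Ppargc1a, the coactivator known to raise mitochondrial biogenesis, was below 1 CPM in all libraries and was not tested. In pH_BMP2ADV20a and in pH_BMP2ADV148b against pH_BMP2ADV no gene of these lists was called, beside 0.476% and 0.249% of all genes.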

How the data were processed

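RNA of 12 C3H/10T1/2 samples, 3 in each of 4 groups, was sequenced as QuantSeq 3' mRNA FWD libraries made from 100 ng of total RNA with 16 PCR cycles, per the labels' protocols. The deposited values are raw counts per gene, 1 file per library. Per the submitters' processing notes the authors used FastQC 0.11.5, STAR 2.5.2a, HTSeq 0.6.0 and the build GRCm38, and DESeq2 (listed as version 3.11). The sources used here do not give the counting mode, the strand setting or the annotation release. Lines that name no gene were left out of totals. Symbols came from GENCODE M21 for 47224 of 47643 genes.

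One edgeR 4.0.16 model (R 4.3.3) with a mean per group was fitted to all 12 libraries, with TMM scaling and the quasi-likelihood F-test on genes kept by filterByExpr. These were 13229 genes, and their common coefficient of biological variation was 0.117. Benjamini-Hochberg adjustment over all of them was called at 0.05, in 6 pairwise comparisons and all 4 groups at once. DESeq2 1.42.0 and limma-voom (limma 3.58.1) were alternatives, with other scalings, filters, sample sets, a replicate block and each library left out. A GC correction in 20 bins and the share of Gm42418 as a term were added after seeing the data. Steps were tested on simulated data. Members, lists and the rule for naming genes (all mitochondrial-coded members, called nuclear members by smallest p, the 2 with most counts per complex, isoform pairs, those at the filter, called list genes and 6 always named) were chosen with earlier results of these data known. Shared sequence was counted as 50-base words over all annotated transcripts, and promoters were read from RefSeq. SEs and intervals come from the edgeR fit and include the spread between libraries. Floors cover counting error only, and reads were amplified and have no molecular identifiers. One result of the gene lists is not reported here.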

Additional observations from a re-analysis of the deposited data

How the results depend on the processing

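The direction of each of the 12 calls was kept in all 22 alternatives. The number of members called in pH_BMP2ADV590 against pH_BMP2ADV (9) was 2 with library totals only and 3 with only the 2 groups compared. Over the fits that leave out 1 library it ranged from 1 to 11. Calls over all genes were 1085 with library totals only, 818 with only the 2 groups compared, and 565 to 1115 with a library left out. The main fit called 1093. Against pH_BMP2ADV148b (3) it was 6 by DESeq2, 0 with library totals only, 5 with no filter on low counts, 0 with only the 2 groups compared, 7 with the Gm42418 share as a term, and 0 to 6 with a library left out. With no filter on low counts 5 members were called in pH_BMP2ADV590 against pH_BMP2ADV20a (0) and 1 in pH_BMP2ADV20a against pH_BMP2ADV (0), and the former ranged from 0 to 7 with a library left out. Over all 4 groups at once (3) the number was 0 with library totals only, 9 with no filter on low counts, 5 with GC content corrected, 7 with the Gm42418 share as a term, and 0 to 7 with a library left out. For the other comparisons, calls over all genes are not set beside these counts. The cause of these shifts was not tested. Same-numbered libraries deviated together by a correlation of -0.113 to 0.0715 over 18 pairs, and libraries of other numbers by -0.0905 to 0.115 over 36 pairs. No pairing by number was seen in these values, which cannot show whether same-numbered libraries were handled together. With a replicate block the fits called 5 members in pH_BMP2ADV590 against pH_BMP2ADV, 1 against pH_BMP2ADV148b and 0 over all 4 groups. The difference between mitochondrial and nuclear sums cannot move with the scaling of the libraries, and it moved by less than 1 SD in every other alternative. With a library left out, the log2 difference from pH_BMP2ADV ranged from 0.12 to 0.27 in pH_BMP2ADV590. It ranged from -0.10 to 0.02 in pH_BMP2ADV20a and from -0.13 to 0.01 in pH_BMP2ADV148b, so its sign was not fixed in these 2 groups. Depth limits the members under about 10 CPM, such as mt-Nd6 and Cox6a2, where counts of 4 to 126 per library leave wide intervals.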
